A study of Homo sapiens with 4 samples.

Results

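Satellite repeats are the tandem arrays that build centromeres, the short arms of acrocentric chromosomes and the sequence beside telomeres. All 23 subfamilies of the class Satellite among the 15583 rows of the repeat count table were taken, with no choice by value. By the family column, 6 were centromeric (ALR_Alpha, HSAT4, GSAT, SST1, GSATII and GSATX), 2 acrocentric (6kbHsap and ACRO1), 1 subtelomeric (TAR1) and 14 without a closer family name, called other satellites here. H3K4me3 was profiled by CUT-and-Tag in HCC1428, an established line of luminal breast adenocarcinoma cells labelled wild type, so all values describe 1 cell line. Cells received the vehicle DMSO or 2.5 µM C48, a small-molecule inhibitor of the KDM5 enzymes, for 5 days in both groups. Each group had 2 libraries (DMSO replicates 1 and 2, C48 replicates 1 and 2). The labels call them biological replicates without naming the cultures they came from, and the p-values below thus rest on the spread of 4 libraries, which may be technical. As a check of the label, a merged H3K4me3 peak lay within 2 kb of the start site of 5 of 5 luminal epithelial genes (GATA3, FOXA1, KRT8, KRT18 and EPCAM) and of 0 of 3 blood genes (PTPRC, CD3E and SPI1).

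H3K4me3, trimethylation of lysine 4 of histone H3, marks active promoters, and KDM5 demethylases remove it. CUT-and-Tag uses an antibody to bring the transposase Tn5 to the mark, so that nearby DNA is cut and sequenced. Most satellite arrays are packed as constitutive heterochromatin, with methylated DNA and methylated lysine 9 of histone H3. Alpha satellite holds the kinetochore, whereas gamma satellite, satellite II and III and beta satellite lie mostly in the flanking pericentromeric or acrocentric DNA. Because their copies are near identical, short reads often match many arrays at once. The deposited counts share such reads between subfamilies, so values of related subfamilies are not separate measurements.

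The sequences below place the main subfamilies at single H3K4me3 peaks. For SATR2, GSATII and LSAU, which had among the smallest p in the comparison below, the strongest called peak was taken, and its middle 300 bases are printed. All 3 of these subfamilies had higher counts with C48, so the strongest peaks of ALR_Alpha and SAR, which had lower counts, were added after the values were seen. Every choice left out a chromosome set aside by plan and peaks without hg38 sequence, so a stronger peak may lie there. The plus strand of hg38 is given 5′ to 3′, and capitals mark CpG dinucleotides, the sites of DNA methylation. A stretch can run past the satellite into other sequence, since a peak was assigned to the repeat at its centre.
SATR2 chr7:97958635-97958934: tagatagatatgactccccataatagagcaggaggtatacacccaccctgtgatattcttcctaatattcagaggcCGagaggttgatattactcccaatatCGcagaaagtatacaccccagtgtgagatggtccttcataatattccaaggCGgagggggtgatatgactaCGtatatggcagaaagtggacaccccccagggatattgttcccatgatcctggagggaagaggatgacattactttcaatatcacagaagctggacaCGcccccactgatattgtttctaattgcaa
GSATII chr12:34349067-34349366: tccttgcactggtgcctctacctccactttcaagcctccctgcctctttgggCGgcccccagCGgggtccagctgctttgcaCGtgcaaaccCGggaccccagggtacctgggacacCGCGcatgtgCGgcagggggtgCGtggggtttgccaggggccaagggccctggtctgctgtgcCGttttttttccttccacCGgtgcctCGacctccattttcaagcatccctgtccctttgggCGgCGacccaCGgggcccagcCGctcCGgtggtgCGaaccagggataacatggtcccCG
LSAU chr20:29878207-29878506: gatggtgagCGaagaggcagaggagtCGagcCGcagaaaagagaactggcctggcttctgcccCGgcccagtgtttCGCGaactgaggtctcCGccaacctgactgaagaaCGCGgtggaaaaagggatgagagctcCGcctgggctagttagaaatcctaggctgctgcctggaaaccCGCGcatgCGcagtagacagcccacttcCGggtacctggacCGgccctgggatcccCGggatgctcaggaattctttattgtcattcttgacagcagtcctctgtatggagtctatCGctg
ALR_Alpha chr17:26885288-26885587: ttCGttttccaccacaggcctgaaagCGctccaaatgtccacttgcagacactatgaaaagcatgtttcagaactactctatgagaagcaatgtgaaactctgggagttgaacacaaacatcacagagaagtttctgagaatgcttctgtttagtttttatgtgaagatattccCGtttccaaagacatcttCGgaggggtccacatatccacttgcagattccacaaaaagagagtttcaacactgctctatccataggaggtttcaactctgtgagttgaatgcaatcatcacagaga
SAR chrUn_KI270467v1:3038-3337: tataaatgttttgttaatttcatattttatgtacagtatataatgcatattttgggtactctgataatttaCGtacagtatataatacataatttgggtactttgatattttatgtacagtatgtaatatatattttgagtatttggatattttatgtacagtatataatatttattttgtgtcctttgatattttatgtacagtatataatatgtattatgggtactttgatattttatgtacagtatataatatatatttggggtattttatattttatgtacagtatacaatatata
The stretches of GSATII and LSAU held 18 and 17 CpG, that of SATR2 5, and those of ALR_Alpha and SAR 4 and 1. GC content went from 20.0% in SAR and 41.7% in ALR_Alpha to 58.0% in LSAU and 65.7% in GSATII. Self-match at a fixed shift was highest in 2 of these peaks, here compared over their whole length rather than the printed stretch. Shifted by 171 bases, the whole ALR_Alpha peak matched itself at 71.8% of positions. The whole SAR peak did so at 70.0% when shifted by 42 bases, the best of shifts from 5 to 200 bases. The best self-match was lower in the whole peaks of GSATII (48.6% at 189 bases), SATR2 (38.1% at 75) and LSAU (31.6% at 21). A shift without gaps blurs copies of unequal length and misses units over 200 bases. A lower value therefore does not show that a tandem build is absent. The deposited annotation puts the SATR2 peak in an intron and the GSATII, LSAU and ALR_Alpha peaks between genes, and gives none for the unplaced SAR contig. Relative to the nearest start site, with minus for upstream, the SATR2 peak lay at -4874 bases of MIR5692A1, GSATII at 326721 of ALG10, LSAU at -2028 of MIR4477B and ALR_Alpha at 203804 of LOC105371703.

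These single peaks already show both directions of change, in tags per 10 M aligned tags as deposited. The GSATII peak held 211 and 224 with DMSO and 408 and 425 with C48, and the LSAU peak 217 and 218 with DMSO and 380 and 347 with C48. The SATR2 peak went from 23.2 and 30.0 to 68.9 and 55.5. The SAR peak went down from 16.6 and 16.6 to 7.71 and 6.74. The ALR_Alpha peak was the weakest of the 5, at 5.88 and 8.36 with DMSO and 3.43 and 1.51 with C48. They are examples with no test of their own.

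The first comparison asked whether reads in each satellite subfamily differed between C48 and DMSO. They did so in opposite directions within the class. Of the 22 subfamilies that passed the filter on low counts, 12 were higher with C48 and 10 lower by the edgeR quasi-likelihood test at an adjusted p of 0.05, against 65.0% of all 4364 repeat subfamilies tested called in either direction (31.6% higher and 33.4% lower). The span ran from HSATII, 3.86-fold lower, to D20S16, 3.03-fold higher. The libraries of the groups did not overlap for any of the 22, against 82.0% of all subfamilies without overlap. The size of the changes set the class apart more than their number: 10 of the 22 moved by more than 2-fold (3 higher, 7 lower), against 13.3% of all subfamilies tested. The split moved with the scaling, to 6 higher and 7 lower per aligned read pair (14.7% of all subfamilies) and to 1 higher and 8 lower with TMM factors outside simple repeats (15.4%). The standard deviation of the log2 fold changes was 1.14 among satellites, 0.85 among simple repeats and 0.50 among DNA transposons. It was 0.49 among LTR elements, 0.36 among LINEs and 0.064 among SINEs, as a description across subfamilies. Among 3 rRNA subfamilies it was 0.99, and among 38 of unknown class 0.67. The remaining member, HSAT6, held 2 reads in each DMSO library and 2 and 7 in the C48 libraries, and was not tested.

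All levels below are counts per 1 M repeat reads (CPM), scaled by TMM factors, which take most repeats as unchanged. A shift shared by all repeats is therefore not seen, and fly spike-in reads, which would show one, were not used here. The paper reports a global gain of H3K4me3 with C48 and fewer fly reads in its C48 samples. Rises and falls in this report are thus relative to other repeats, and a fall is no measured loss of the mark. Another scaling moves every subfamily by nearly the same amount and leaves their order as it is. With TMM factors taken outside simple repeats, the median of all subfamilies moved by -0.24 on the log2 scale, and per aligned read pair it moved by 0.13. Only TAR1 changed its direction under the scalings tried, and only CER lost its call. Repeat reads numbered 14.8 and 11.3 M with DMSO and 11.7 and 14.0 M with C48. They made up 33.5% and 35.0% of aligned read pairs with DMSO, and 40.0% and 38.6% with C48, which moves with every share of aligned pairs given below.

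**Figure D1:**
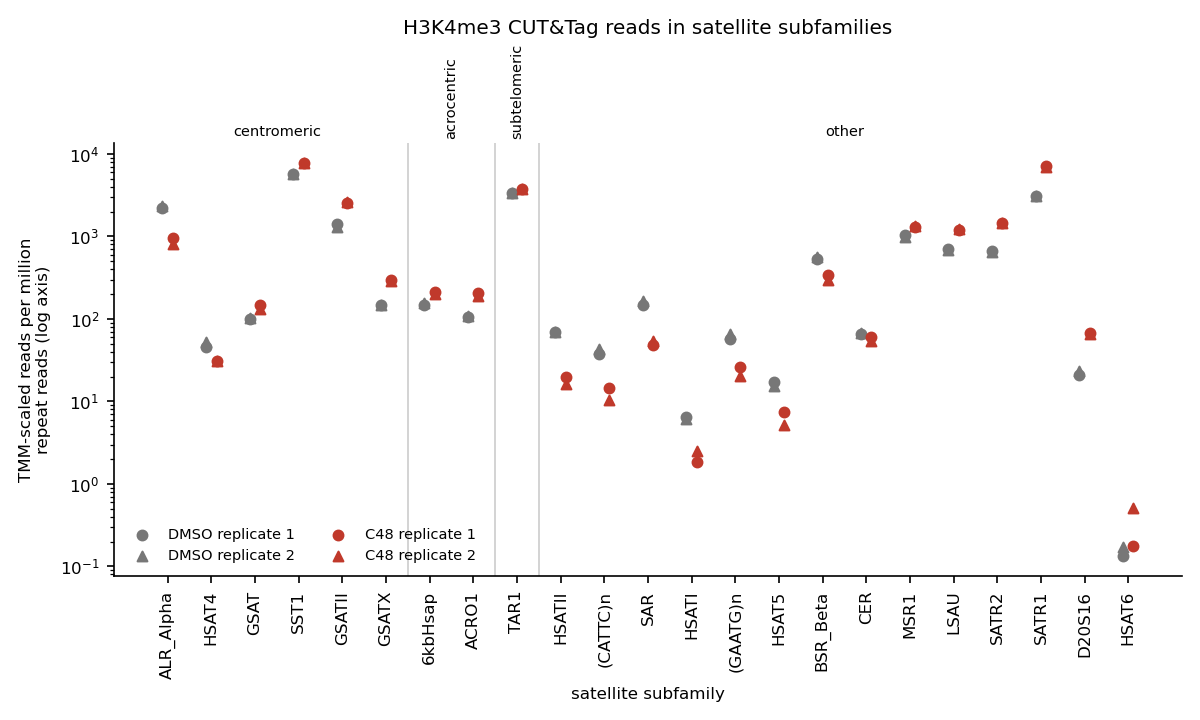
TMM-scaled CPM (y axis, log scale) of the 23 satellite subfamilies (x axis, grouped by family) in each DMSO library (grey) and C48 library (red), with circles for replicate 1 and triangles for replicate 2. ALR_Alpha and most subfamilies of the left part of the other group are lower in both C48 libraries, SATR1, SATR2 and D20S16 are higher in both, and HSAT6 lies below 1 CPM in every library.

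**Figure D2:**
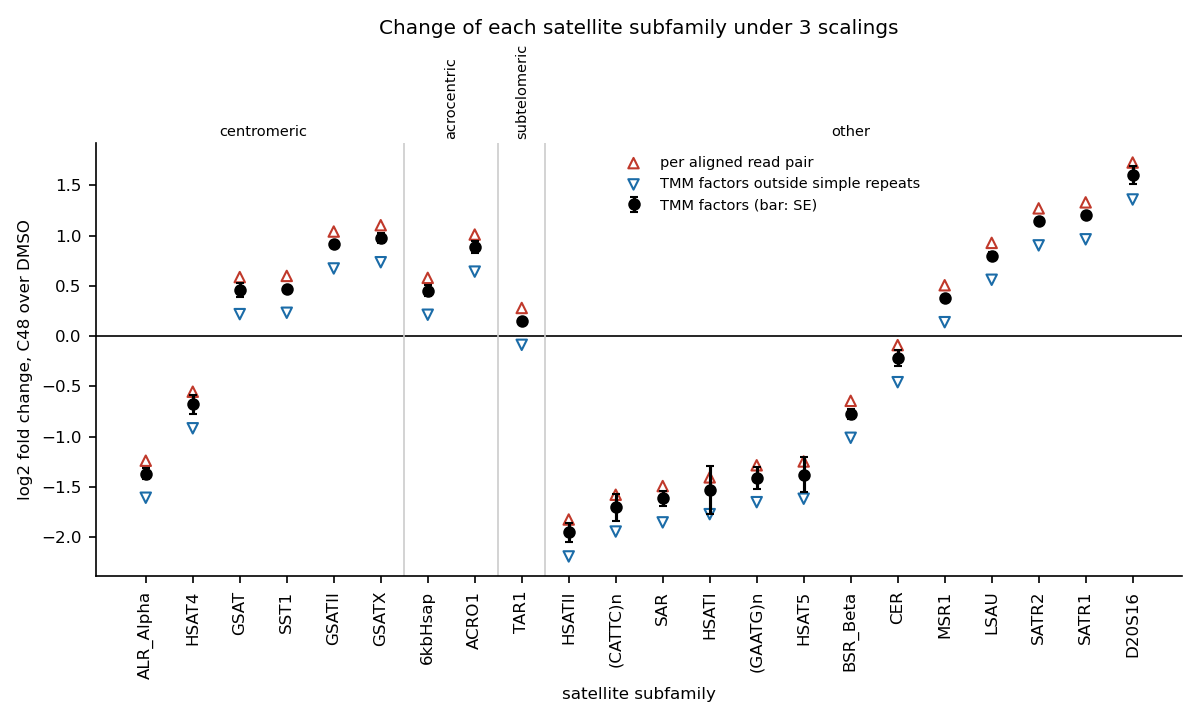
Log2 fold change, C48 over DMSO (y axis), of the 22 tested satellite subfamilies (x axis, grouped by family) with TMM factors (black, bar: SE), per aligned read pair (red) and with TMM factors outside simple repeats (blue). Each scaling shifts all subfamilies together, and TAR1, at 0.15, 0.28 and -0.09, is the one that crosses 0.

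Among centromeric satellites, alpha satellite fell while the gamma satellites and SST1 rose. ALR_Alpha, the alphoid repeat on which the kinetochore is built, stood at 2199 and 2324 CPM with DMSO and at 953 and 803 with C48. Both C48 libraries lay far below both DMSO libraries. The fall was 2.58-fold, a log2 fold change of -1.37 (SE 0.054, n = 2 per group, edgeR adjusted p = 7.52e-12). HSAT4, the other centromeric subfamily that fell, stood at 45.6 and 53.1 with DMSO and at 30.9 and 30.6 with C48 (log2 fold change -0.68, SE 0.094, edgeR adjusted p = 9.71e-06).

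The 3 gamma satellites, GC-rich arrays of pericentromeric DNA, all rose. GSATX went from 149 and 146 CPM to 294 and 288 (log2 fold change 0.98, SE 0.046). GSATII went from 1396 and 1319 to 2509 and 2605 (0.91, SE 0.033). GSAT, the weakest of the 3 changes, went from 99.0 and 104 to 148 and 131 (0.46, SE 0.068, edgeR adjusted p = 1.82e-05). The groups did not overlap in any of them, and the 2 C48 libraries of GSAT differed from each other by more than those of GSATX. SST1, a long tandem repeat known for loss of DNA methylation in cancers, held more satellite reads than any other subfamily. Its level was 5694 and 5637 with DMSO and 7852 and 7871 with C48, a 1.39-fold rise (log2 fold change 0.47, SE 0.024, edgeR adjusted p = 1.14e-10).

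The acrocentric and subtelomeric subfamilies rose as well, by less than 2-fold. ACRO1, a repeat of the acrocentric short arms, went from 106 and 108 CPM to 206 and 188 (log2 fold change 0.88, SE 0.059, edgeR adjusted p = 1.91e-09). 6kbHsap went from 146 and 155 to 213 and 199 (0.45, SE 0.055, edgeR adjusted p = 1.98e-06). The rise of ACRO1 was the larger of the 2, and its C48 libraries were each well above both DMSO libraries. TAR1, the repeat found next to the telomeric tracts of chromosome ends, changed least among the members that rose, from 3365 and 3373 to 3770 and 3726 (1.11-fold, log2 fold change 0.15, SE 0.026, edgeR adjusted p = 7.04e-05). Its direction turned with TMM factors outside simple repeats, where it was lower with C48 (log2 fold change -0.09, edgeR adjusted p = 0.0413).

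Of the 13 other satellites tested, 5 rose and 8 fell. HSATII, the pericentromeric satellite II known for its RNA in epithelial cancers, fell most, from 68.8 and 70.2 CPM to 19.8 and 16.4 (log2 fold change -1.95, SE 0.097, edgeR adjusted p = 8.03e-11). The subfamilies named for the pentamer of satellites II and III fell with it: (CATTC)n went from 37.2 and 43.2 to 14.4 and 10.4 (-1.70, SE 0.13), and (GAATG)n from 57.8 and 65.1 to 26.2 and 20.2 (-1.41, SE 0.11). These names spell the same unit on opposite strands, so they are 1 observation rather than 2. The AT-rich satellites of group I fell as well: SAR went from 148 and 166 to 48.7 and 53.8 (-1.61, SE 0.076), and HSATI from 6.54 and 6.10 to 1.85 and 2.48 (-1.53, SE 0.24). HSATI rests on 21 and 34 reads in the C48 libraries, and its error is the largest of all members.

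The other falls were HSAT5, from 17.0 and 15.4 CPM to 7.47 and 5.19 (log2 fold change -1.38, SE 0.17), and BSR_Beta, the beta satellite of acrocentric and pericentromeric DNA, from 529 and 559 to 339 and 299.8 (-0.77, SE 0.049). Both were lower in each C48 library. CER changed least among the members that fell, from 65.3 and 66.9 to 60.4 and 53.5 (-0.22, SE 0.079, edgeR adjusted p = 0.0245), and was not called per aligned read pair (edgeR adjusted p = 0.41), by DESeq2 (adjusted p = 0.0972), without DMSO replicate 2 (edgeR adjusted p = 0.0858) or without C48 replicate 2 (edgeR adjusted p = 0.273).

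The 5 other satellites that rose include the largest rise of all members. D20S16, a repeat named for a locus of chromosome 20, went from 21.1 and 23.5 CPM to 68.2 and 66.5, 3.03-fold (log2 fold change 1.60, SE 0.088, edgeR adjusted p = 2.02e-10). SATR1 went from 3132 and 3065 to 7239 and 7028, with the smallest p of all members (1.20, SE 0.027, edgeR adjusted p = 6.88e-15). SATR2 went from 671 and 649 to 1474 and 1442 (1.14, SE 0.032). In these 3 the difference between replicates was small beside that between groups. LSAU, a GC-rich repeat that is also part of the D4Z4 array, went from 702 and 693 to 1212 and 1218 (0.80, SE 0.031). MSR1, a GC-rich minisatellite, went from 1055 and 997 to 1320 and 1349 (0.38, SE 0.034, edgeR adjusted p = 5.02e-08).

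Because members moved apart, sums over a family hid part of the change. The edgeR test on family sums called all 4 satellite families higher with C48, against 84.7% of the 59 repeat families called in either direction and 67.8% called higher. The centromeric sum rose 1.23-fold (log2 fold change 0.30, SE 0.012, edgeR adjusted p = 2.61e-06) although ALR_Alpha and HSAT4 fell. With TMM factors outside simple repeats, this sum changed by far less (log2 fold change 0.055, SE 0.025, edgeR adjusted p = 0.0383). The sum of the other satellites rose 1.81-fold (0.86, SE 0.017, edgeR adjusted p = 1.84e-07), while the median over its 13 tested members was -0.77, so the sum and the median differ in sign. The acrocentric sum rose 1.57-fold (0.65, SE 0.050) and the subtelomeric sum, which is TAR1 alone, 1.11-fold (0.15), again turning to -0.087 with TMM factors outside simple repeats.

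As shares, satellites took up more of the C48 libraries. They held 2.02% and 2.02% of all repeat reads with DMSO and 2.71% and 2.67% with C48 (means 2.02% ± 0.0026 and 2.69% ± 0.028, SD, n = 2 per group). Of aligned read pairs they held 0.675% and 0.707% with DMSO and 1.08% and 1.03% with C48. The groups did not overlap on either measure. The widest 95% Wilson interval around any of these shares reached 0.0093 percentage points to either side, which covers counting error only. A two-sided exact permutation test of 2 against 2 libraries cannot give a p below 0.333, which all 18 comparisons of shares reached (0.333 after Benjamini-Hochberg adjustment). Without ALR_Alpha the centromeric share of repeat reads went from 0.751% ± 0.0061 to 1.06% ± 0.0059 (SD), and with it from 0.982% ± 0.0038 to 1.15% ± 0.0044. Taken over repeat reads outside simple repeats and low complexity, the centromeric share differed little between DMSO and C48 (1.64% ± 0.0046 and 1.62% ± 0.0034), and that of TAR1 was lower with C48 (0.577% ± 0.00062 and 0.517% ± 0.0014).

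The make-up of the satellite reads gives shares within the class, and library scaling does not enter it. Because these shares have a fixed total, a gain in some subfamilies lowers the shares of others. TAR1 below lost share although its TMM-scaled CPM was higher with C48. ALR_Alpha took 11.2% and 11.8% of all satellite reads with DMSO and 3.43% and 2.93% with C48. SATR1 took 15.9% and 15.6% with DMSO and 26.0% and 25.6% with C48. By size of share ALR_Alpha thus moved from the fourth to the eighth place and SATR1 from the third to the second. GSATII rose from 6.90% ± 0.26 to 9.26% ± 0.34 and SATR2 from 3.35% ± 0.073 to 5.28% ± 0.027, whereas TAR1 went from 17.1% ± 0.074 to 13.6% ± 0.026 and BSR_Beta from 2.76% ± 0.12 to 1.16% ± 0.087 (SD, n = 2 per group). SST1 kept the first place at 28.8% ± 0.13 and 28.5% ± 0.34. A share of reads depends on the length and number of copies, so these are not levels per copy.

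**Figure D3:**
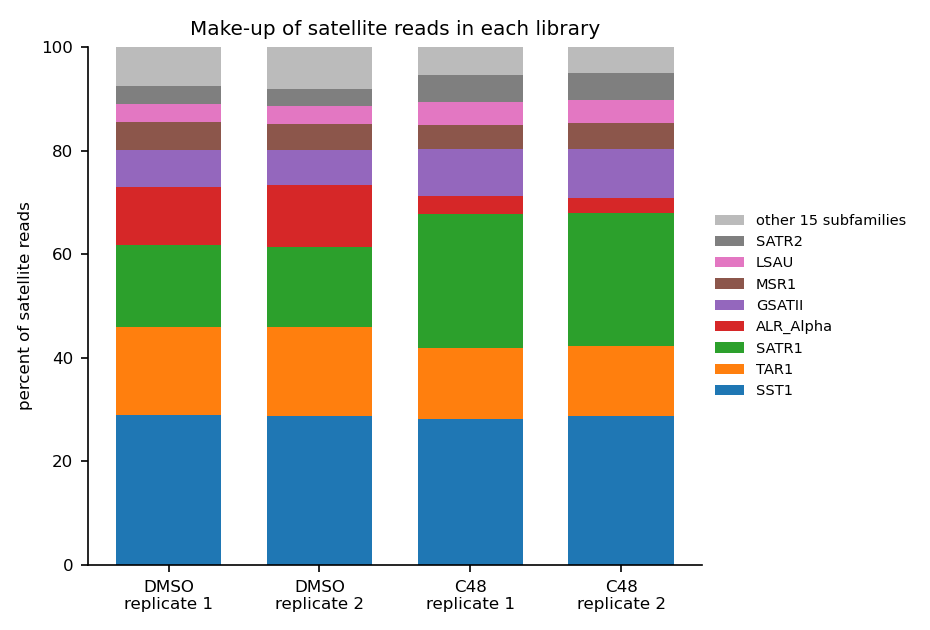
Percent of satellite reads (y axis) held by the 8 subfamilies with the largest mean share with DMSO and by the other 15 together, in each of the 4 libraries (x axis). The red ALR_Alpha band shrinks from 11.2% and 11.8% with DMSO to 3.43% and 2.93% with C48, and the green SATR1 band grows from 15.9% and 15.6% to 26.0% and 25.6%.

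Simple repeats built from the units of telomeres and of satellites II and III are listed outside the satellite class and were read beside it. All 8 listed rotations of the CATTC unit and its reverse complement fell (median log2 fold change -1.61, from -1.88 to -1.20), in the direction of HSATII, (CATTC)n and (GAATG)n. Their summed reads were 5105 and 4304 with DMSO and 1516 and 1498 with C48. All 12 rotations of TTAGGG, the unit at chromosome ends, and of its reverse complement also fell (median -0.92, from -1.04 to -0.21), with 13914 and 11512 reads with DMSO and 6458 and 7895 with C48. The highest counts were those of (CTAACC)n, with 1839, 1480, 1053 and 1313 reads in DMSO replicates 1 and 2 and C48 replicates 1 and 2, and its log2 fold change was -0.40 (SE 0.063, edgeR adjusted p = 3.70e-05). Over all 4364 subfamilies the median was 0.02, and 33.4% were called lower. Rotations of 1 unit share reads, so each list is 1 observation.

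A separate question was how far satellite reads lay in H3K4me3 peaks. Of 110018 merged peaks, 521 were assigned to a satellite, among them 49 of REP522, which the repeat counts place in another class. The other 472 belonged to members, and 292 of these had been called in 1 or more of the libraries analysed. The number called per library was 181 and 179 with DMSO and 206 and 209 with C48. Of the 292, 126 (43.2%) were called in all 4 libraries, against 53.5% of the 45692 merged peaks called in any. Calls in both C48 libraries and no DMSO library made up 33 (11.3%, against 12.1% of all called peaks), and calls in both DMSO libraries and no C48 library 20 (6.85%, against 2.61%). These shares were not tested. By called peaks, SATR1 came first with 104 of 109 on 17 chromosomes, then SST1 with 60 of 88, TAR1 with 36 of 50 and GSATII with 24 of 44. ALR_Alpha had 54 merged peaks on 11 chromosomes and 1 called.

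Pooled over members, those that rose and those that fell differed in this respect. In the 12 that rose, 18.1% and 17.9% of reads with DMSO and 17.3% and 17.4% with C48 lay in satellite peaks. In the 10 that fell, the values were 0.979% and 1.00% with DMSO and 1.05% and 0.851% with C48. These percentages set peak tags, counted as pairs, against repeat reads. With DMSO, LSAU stood highest among the members that rose at 31.0%, followed by SST1 at 21.1% and GSATX at 19.4%, while D20S16, which rose most, stood at 6.98%, SATR2 at 6.45% and ACRO1 at 3.56%, and 6kbHsap had no peak. Among the members that fell, SAR stood at 6.94%, BSR_Beta at 1.97%, HSAT4 at 0.892% (3.26% with C48) and ALR_Alpha at 0.259%, and HSATII, HSAT5 and CER had no peak. HSATI stood highest among them, at 36.9% from 2 peaks and few reads. The members that rose had 279 called peaks and those that fell 13. Pooled over the members that fell, peak tags thus came to between 0.851% and 1.05% of the repeat reads counted. The repeat counts do not place single reads, so where the other reads lay was not measured. Pooled peak content differed between the directions although single members overlapped, and its part in the change was not tested.

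The peaks of the groups also differed in base composition. The median CpG density of a subfamily's peaks was 2.01 to 6.47 per 100 bases in the 11 members that rose and had peaks with sequence, and 0.339 to 1.72 in the 6 that fell, without overlap. These medians take in all merged peaks, called in these libraries or not. Of the merged peaks, 279 of 379 were called here for the members that rose and 13 of 93 for those that fell. The contrast thus sets mostly called peaks against mostly uncalled regions. Over all merged peaks the median was 2.35, and over satellite peaks 3.34. GC content overlapped, at 44.0% to 64.5% in the members that rose and 22.7% to 50.0% in those that fell, because the SATR1 and SATR2 peaks lay at 44.0% and 44.8%. Across the 17 members with peak sequences, Spearman's rho of the log2 fold change was 0.57 with CpG density and 0.43 with GC content, and across all 22 tested it was 0.44 with the percent of reads in peaks. The points share libraries and reads, so these values are a description. Within the members that rose the order did not follow GC content: TAR1, with the highest value of 64.5%, changed least. Apart from MSR1, whose peaks lay at a median of 0.98 kb from a start site, the median distance of a subfamily's peaks to a start site went from 9.63 kb for ACRO1 to 826 kb for ALR_Alpha, while single peaks could be nearer, as for SATR2 and LSAU above.

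**Figure D4:**
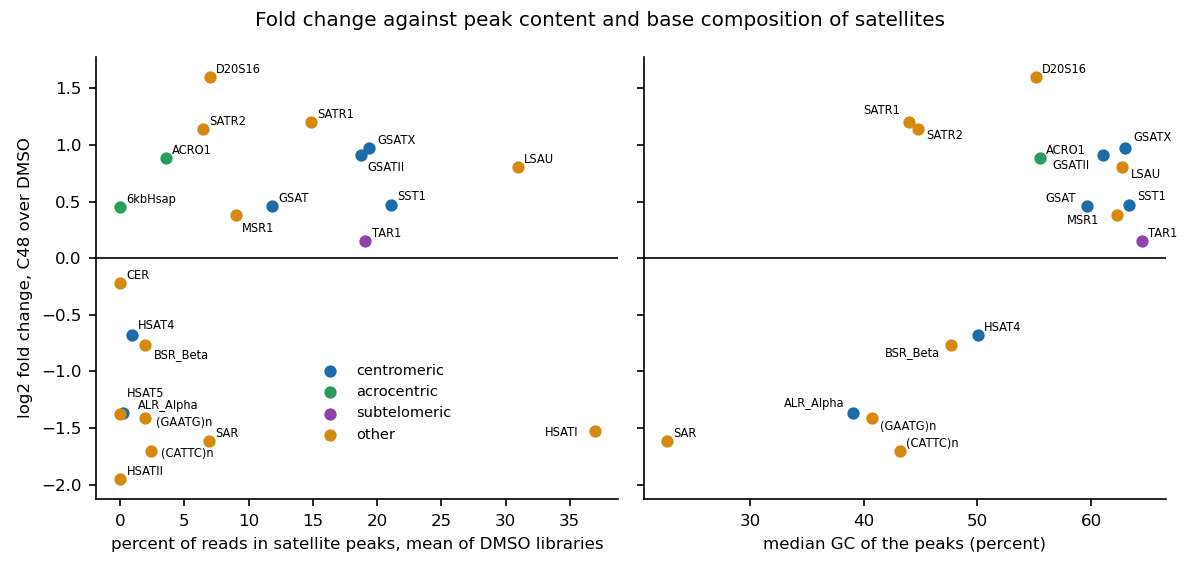
Log2 fold change, C48 over DMSO (y axis), of satellite subfamilies, coloured by family. The left panel sets it against satellite peak tags, counted as pairs, in percent of repeat reads with DMSO (mean of 2 libraries). The right panel sets it against the median GC content of each subfamily's merged peaks in percent (the 17 subfamilies with peak sequences). Members that fell sit at 6.94% or less in the left panel except HSATI at 36.9%, and at or below 50.0% GC in the right panel.

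The second readout was the signal summed over the peaks of each satellite in the same libraries, which is no independent replicate. Of 15 members with enough signal, limma called 11 higher and 4 lower with C48, against 72.9% of the 867 repeat names tested called in either direction (65.1% higher and 7.84% lower). The direction was that of the repeat counts in 15 of 15 members. Among them, HSATI passed the filter on signal only through its DMSO values, so its direction carries no weight. The median log2 fold change was 0.67 over these members and 0.53 over all repeat names. Fold changes here are on the log2(value + 1) scale, with values in tags per 10 M aligned tags scaled by TMM factors of the peak table.

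Of the 10 members that fell in repeat counts, 4 had enough peak signal to be tested, and these 4 were lower at their peaks too. HSATI, among these 4, passed the filter only through its DMSO values, so its lower value there is no support. The 5 SAR peaks summed to 41.2 and 44.8 tags per 10 M with DMSO and to 15.0 and 10.8 with C48 (log2 fold change -1.67, SE 0.19, limma adjusted p = 4.49e-07). The 54 ALR_Alpha peaks together summed to 20.3 and 26.1 with DMSO and to 11.4 and 4.34 with C48 (-1.57, SE 0.31, limma adjusted p = 0.000245), so the 2 C48 libraries differed widely. Leaving out C48 replicate 2 gave -0.96 and leaving out C48 replicate 1 gave -2.16. The 15 BSR_Beta peaks gave -1.29 (SE 0.17) and the 2 HSATI peaks -1.69 (SE 0.39). With no filter on low values, ALR_Alpha and HSATI were not called (limma adjusted p = 0.0966 and 0.0572). HSAT4, which fell in repeat counts, was too weak to be tested, and its 2 peaks went the other way, from 1.14 and 2.43 with DMSO to 4.55 and 2.34 with C48.

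Signal at the peaks of the 11 members called higher spanned a wide range. The 109 SATR1 peaks summed to 1817 and 1824 tags per 10 M with DMSO and to 3188 and 3055 with C48 (log2 fold change 0.78, SE 0.032, limma adjusted p = 2.26e-12). That was below the 1.20 of its repeat counts, whereas GSAT was higher in peaks (1.05, SE 0.12) than in counts (0.46). SST1 went from 4652 and 4768 to 5416 and 5343 (0.19, SE 0.026) and TAR1 from 2475 and 2604 to 2920 and 2820 (0.18, SE 0.033), the smallest rises. D20S16 again rose most (1.71, SE 0.25), on 10 peaks and from 6.72 and 5.40 to 25.6 and 18.7. The rises of ACRO1 (1.18, SE 0.18), SATR2 (0.94, SE 0.062), GSATX (0.92, SE 0.073), LSAU (0.69, SE 0.039), GSATII (0.67, SE 0.037) and MSR1 (0.38, SE 0.051) lay between. MSR1 was not called when its sum was limited to the 2 peaks called in these libraries (0.079, limma adjusted p = 0.262).

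**Figure D5:**
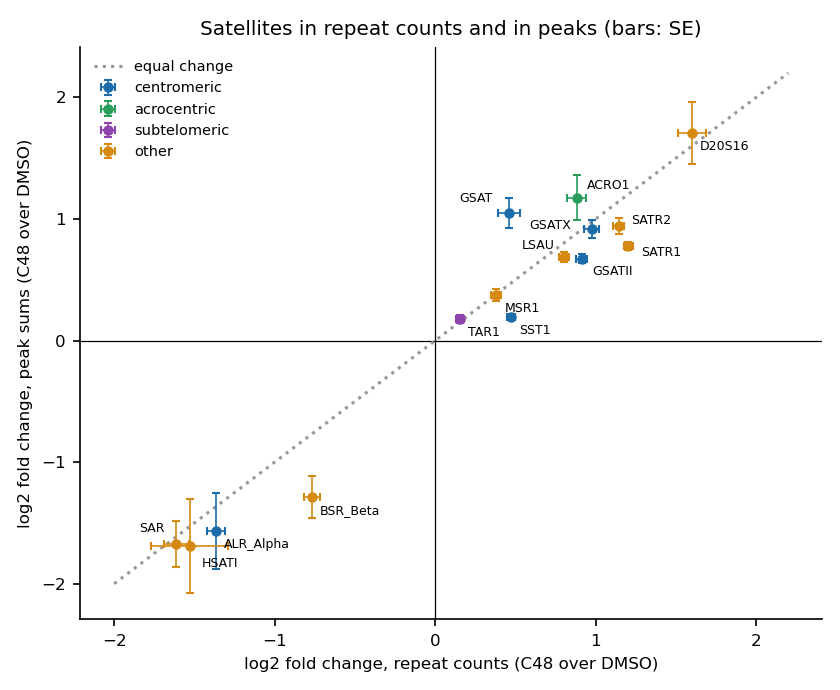
Log2 fold change, C48 over DMSO, of 15 satellite subfamilies in repeat counts (x axis, TMM-scaled) and in peak sums (y axis, log2(value + 1) scale), with SE bars on both and a dotted line of equal change. All 15 lie in the lower left or upper right quadrant, and among the members that rose SATR1 and SST1 sit below the line and GSAT above it.

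REP522 shows how class names differ between the tables. It is listed as Unknown among the repeat counts, and so is no member, but as a telomeric satellite in the peak annotation. Its reads rose by 0.10 on the log2 scale (SE 0.027, edgeR adjusted p = 0.00426), with 56196 and 42931 with DMSO and 44366 and 55118 with C48. Its 49 peaks gave -0.10 (SE 0.044, limma adjusted p = 0.0508), which was not called and turned to 0.24 per 10 M tags as deposited.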

How the data were processed

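H3K4me3 CUT-and-Tag libraries of 2 DMSO and 2 C48 samples were used, grouped by the sample titles. Treated columns carry the tag GNE and were matched through the sample descriptions. The authors aligned reads to hg38 and, for the fly spike-in nuclei, to dm6 with Bowtie2 2.3.4.1. In the repeat table the authors deposited estimated counts from RepEnrich2, which were whole, so rounding changed nothing. The deposited peak signal is the number of HOMER tags in each merged peak per 10 M aligned tags, without spike-in scaling. Peaks were called per library and merged over libraries that include other cell lines. All values (100%) were whole tags within a tolerance of 0.1, which gave the aligned tags per library. A pair was counted as 2 tags, giving 44.2 and 32.3 M pairs with DMSO and 29.2 and 36.3 M with C48.

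The study scaled by spike-in counts. These were not used here, and column totals with TMM factors took their place. Subfamilies and family sums were tested with the quasi-likelihood test of edgeR 4.0.16 after its default filter (R 4.3.3), and peak sums per repeat name with limma-trend (limma 3.58.1) on log2(value + 1) for names with a mean of at least 5. P-values were adjusted by Benjamini-Hochberg over all features tested, with calls at 0.05. Tests were also run on simulated counts with a set spread and a smaller share of changed features than was called here. That run does not check the calls or the scaling under the conditions of these data. Replicates of a group differed by more than sampling noise (chi-square per degree of freedom 2.81 with DMSO and 3.08 with C48). DESeq2 1.42.0, other scalings and filters, a replicate block and leaving out each library were tried as alternatives, and edgeR on recovered tags was added after seeing the data. Tables and plots used Python 3.11.15, numpy 2.4.6, pandas 2.3.3, scipy 1.17.1 and matplotlib 3.10.9.

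Every member is named, with the simple repeats of the TTAGGG and CATTC units as lists, of which the unit with the highest mean count is named. The members, lists and marker genes were chosen with earlier results of these data known. Sequences were to be shown for the 4 subfamilies with the smallest p among those with a called peak. One stretch that this rule selects is not reported here.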

Additional observations from a re-analysis of the deposited data

How the results depend on the processing

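Most results kept their direction and their side of the threshold. Among the subfamily fold changes, 237 of the alternative values did so, 4 lost the call, all of them CER, and 1 turned, TAR1 (-0.09). With TMM factors outside simple repeats the subtelomeric sum also turned (-0.087), and the count became 11 higher and 11 lower. As a share of repeat reads outside simple repeats and low complexity, the log2 ratio of centromeric satellites turned to -0.018 and that of the subtelomeric family to -0.16. For satellite peak sums, the REP522 value turned to 0.24 per 10 M tags as deposited, and the count called lower was 2 with no filter on low values, against 4. CER was -0.09 per aligned read pair, -0.23 by DESeq2, -0.22 without DMSO replicate 2 and -0.13 without C48 replicate 2. DESeq2 and aligned read pairs as library size each left 12 higher and 9 lower. The cause of these changes was not tested.

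Leaving out each library in turn left 12 subfamilies higher and 9 to 10 lower, 11 peak sums higher and 3 to 4 lower, the latter 3 without either DMSO library, where HSATI fell below the filter. In these fits the lone library is assumed to vary like the other group. The ALR_Alpha fold change ranged from -1.50 to -1.25 and that of SATR1 from 1.17 to 1.22.

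Same-numbered libraries did not deviate together (r = -0.050 over 4364 subfamilies and -0.057 over the 1220 outside simple repeats). Whether they shared a culture or batch is not given by the labels, and this correlation cannot decide it. With the replicate number as a block, 12 subfamilies were higher and 10 lower, and peak sums kept 11 and 4 calls. With 2 libraries per group and no spike-in reads used, a shift shared by all repeats was not measured. Low counts, as in HSATI, add error to that member.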
